A study of Mus musculus with 8 samples.

Results

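The genes described here are Myc, its partners and opponents of the Max network, and factors that build ribosomes, 47 genes in all, taken as a list of gene symbols. A gene was followed where the platform annotation gave a probe set its symbol alone, which held for 43 of the 47 genes and 82 probe sets. Max, Mybbp1a, Gnl3 and Tsr1 had none and are named only. After the lowest 40% of probe sets by mean level were left out, 80 of the 82 probe sets and 42 of the 43 genes were tested, among 11836 genes in all. The missing one, Ncl (nucleolin), read 3.72, 3.65, 3.88 and 3.60 in Meis1 deleted cells, against 3.98, 3.89, 3.72 and 3.77 in cells with Hoxa9 and Meis1, all under the filter threshold of 4.29. All levels are log2 expression values as deposited.

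The study asked which genes change when Meis1 is removed from mouse marrow cells that Hoxa9 and Meis1 together had made leukaemic. The Meis1 deleted cells (4 arrays) had received 2 µM 4-hydroxytamoxifen, which switches on a Cre recombinase and cuts a floxed Meis1 cDNA out of the genome. The cells with Hoxa9 and Meis1 (4 arrays) were the untreated parent cells. Both groups were C57BL/6 marrow cells with the Rosa26-Cre-ERT2 knock-in, both carried retroviral Hoxa9, and both grew in 10% serum and 5 ng/ml interleukin-3. Drug and Cre activity are therefore contained in every difference, and the labels do not say whether the transformed cells were 1 clone or how long after the drug they were collected. The labels do not state whether a group's 4 samples were separate cultures, so the p-values reflect sample spread alone and that spread could be technical. Differences are log2 fold changes, Meis1 deleted minus Hoxa9 and Meis1, with limma's standard error (SE) and a Benjamini-Hochberg adjusted p over all 11836 genes. A gene was called where that p was under 0.05.

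Myc is a transcription factor that pairs with Max, binds E-box sequences and drives growth. Mxd proteins compete for Max and repress the same sites. Among the best known Myc targets are the genes for ribosome assembly: RNA polymerase I makes the long rRNA precursor in the nucleolus, small nucleolar ribonucleoproteins (snoRNPs) modify it, and large sets of assembly factors cut and fold it into the small and the large subunit. In myeloid cells Myc activity is high in dividing progenitors and is turned down as they mature.

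The promoter sequences below show which letters around the start sites of these genes match an E-box. They are RefSeq promoters of the GRCm38.p6 assembly, 300 bases from 250 before to 50 after the start of the gene, printed 5′ to 3′ on the gene's strand. Motif letters searched were CACGTG, which is its own reverse complement, and CACGCG with its reverse complement CGCGTG. The second motif can overlap its own reverse complement, and the first overlaps neither. The capitals mark them. Those of Mxd4, Wdr43 and Grwd1 are the 3 promoters with CACGTG among the members that fell, Ppan and Dkc1 are the assembly factors with the smallest adjusted p among members that fell and a promoter (one with CGCGTG, the other with neither motif), and Utp20 has CACGTG but was not called. Mxd4 lies at chr5:34187661-34187960 (minus strand), Wdr43 at chr17:71615965-71616264 (plus strand), Grwd1 at chr7:45830740-45831039 (minus strand), Ppan at chr9:20887925-20888224 (plus strand), Dkc1 at chrX:75095604-75095903 (plus strand) and Utp20 at chr10:88826765-88827064 (minus strand).
Mxd4: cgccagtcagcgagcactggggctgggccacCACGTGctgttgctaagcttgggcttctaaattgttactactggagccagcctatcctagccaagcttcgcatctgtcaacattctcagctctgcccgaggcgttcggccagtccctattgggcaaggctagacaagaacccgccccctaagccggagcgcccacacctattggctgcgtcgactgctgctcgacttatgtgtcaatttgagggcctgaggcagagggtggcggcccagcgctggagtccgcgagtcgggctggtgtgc
Wdr43: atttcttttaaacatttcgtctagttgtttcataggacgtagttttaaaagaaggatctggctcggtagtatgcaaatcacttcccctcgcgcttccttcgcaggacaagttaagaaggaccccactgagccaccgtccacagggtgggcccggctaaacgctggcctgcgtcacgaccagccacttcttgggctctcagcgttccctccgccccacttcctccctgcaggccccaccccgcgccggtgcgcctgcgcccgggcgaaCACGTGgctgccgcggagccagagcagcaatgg
Grwd1: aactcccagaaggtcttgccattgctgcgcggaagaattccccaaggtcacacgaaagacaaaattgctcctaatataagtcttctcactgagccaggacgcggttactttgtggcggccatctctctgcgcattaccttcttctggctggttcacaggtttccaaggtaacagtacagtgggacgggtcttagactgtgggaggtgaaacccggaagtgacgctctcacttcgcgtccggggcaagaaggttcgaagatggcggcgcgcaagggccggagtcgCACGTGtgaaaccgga
Ppan: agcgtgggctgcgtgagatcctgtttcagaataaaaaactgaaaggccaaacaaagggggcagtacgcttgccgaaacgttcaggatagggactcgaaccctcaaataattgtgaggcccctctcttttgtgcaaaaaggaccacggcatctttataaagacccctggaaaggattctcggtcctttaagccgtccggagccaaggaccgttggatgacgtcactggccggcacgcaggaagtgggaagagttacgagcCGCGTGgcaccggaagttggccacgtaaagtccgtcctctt
Dkc1: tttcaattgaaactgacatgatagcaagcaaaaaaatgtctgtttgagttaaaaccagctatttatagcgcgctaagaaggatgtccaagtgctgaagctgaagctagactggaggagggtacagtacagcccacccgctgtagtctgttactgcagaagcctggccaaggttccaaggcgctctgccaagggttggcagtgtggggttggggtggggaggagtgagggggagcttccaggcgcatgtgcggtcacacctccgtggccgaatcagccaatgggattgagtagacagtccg
Utp20: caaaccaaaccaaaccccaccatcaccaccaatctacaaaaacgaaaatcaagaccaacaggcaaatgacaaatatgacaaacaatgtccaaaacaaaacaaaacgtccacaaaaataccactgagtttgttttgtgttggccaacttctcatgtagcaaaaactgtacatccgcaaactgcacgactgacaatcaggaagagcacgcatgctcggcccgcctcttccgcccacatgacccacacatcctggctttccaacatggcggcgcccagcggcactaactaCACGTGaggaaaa

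Promoters were found for 40 of the 47 genes, and the table used here had none for Myc, Npm1, Fbl, Rrs1, Bop1, Rrp12 or Tcof1. A gene with several promoters was counted if any of them held the motif. CACGTG occurred in 10 of the 40 genes (25%), against 8.09% of the 27025 genes with a promoter. CACGCG or CGCGTG occurred in 14 of 40 (35%), against 10.5% of all genes. Among genes with a promoter, at least 1 of the motifs stood in 8 of the 14 that fell (57.1%). It did so in 11 of the 21 that were tested and not called (52.4%). Motif matches thus were common in both groups of genes. A match is a description of these letters and not a binding site.

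Meis1 deleted replicate 1 stood apart from the other 7 arrays. Its Gapdh signal was 0.72 higher at the 3′ than at the 5′ probe sets (log2), against -0.07 to 0.04 on the others, and its Actb difference was 0.67 against 0.32 to 0.38. In 12 of the 80 kept probe sets of these genes (15%), it lay 0.5 or more from the mean of the other Meis1 deleted arrays, compared with 7.14% of all kept probe sets. On each of the other arrays 0 to 2 of the 80 did so. Counts are therefore given with and without it. The arrays also fell into a set of 5 with low and a set of 3 with high bioB spike signal, and each set held both groups. The probe sets for Meis1 and Hoxa9 cannot check the labels: the kept Meis1 probe set read 5.02 ± 0.07 in Meis1 deleted cells, against 5.00 ± 0.05 (SD, n = 4 each) in cells with Hoxa9 and Meis1, and whether it matches the retroviral cDNA was not tested. All 7 markers listed for immature myeloid cells were kept, whereas Cd79b, Pax5, Cd3g and Cd8a of the lymphoid lists fell under the filter. The filter used the mean over both groups, so a kept marker need not be above the threshold in each group. Cd34 read 4.05, 4.03, 4.04 and 3.88 in Meis1 deleted cells, all under the filter threshold. It read 5.59 to 6.07 in cells with Hoxa9 and Meis1.

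Myc and 16 other genes fell, and 0 of the 42 rose by limma. At an unadjusted limma p under 0.05, 20 of the 42 were lower and 0 higher, against 2628 lower and 2631 higher of all 11836 genes. Calls lower came to 40.5% of the tested members, against 17.5% of all genes, and calls higher to 0, against 18.1% of all genes. By sign, 36 of the 42 differences were negative (85.7%), against 50.9% of all genes. The median difference was -0.13, against -0.00444 for all genes. On single arrays the median over the members, relative to the mean of the cells with Hoxa9 and Meis1, was -0.12, -0.16, -0.15 and -0.13 in Meis1 deleted cells, against -0.02, -0.00, 0.01 and 0.02 in cells with Hoxa9 and Meis1. The 4 arrays of Meis1 deleted cells thus all lay below the others. In bulk samples, fewer cells of a type and less RNA per cell cannot be told apart.

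The direction was shared but the differences were small. Of the 17 genes, only Myc and Nop58 fell by 0.5 or more, 11 fell by 0.25 to 0.5 and 4 by less. In size, 29 of the 42 differences were under 0.25 (69.0%), against 73.7% of all genes. The median size was 0.14, against 0.127 for all genes. Groups did not overlap for 19 of the 42 genes, all lower, against 18.9% of all genes lower and 19.7% higher.

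Leaving out Meis1 deleted replicate 1 gave 21 lower calls and 0 higher among the 42 members. In that fit 2450 of all 11836 genes were lower (20.7%) and 2223 higher (18.8%). All 17 genes kept their call, and Npm1, Ddx21, Rrp12 and Noc2l joined them. With the bioB sets as a block, 16 of the 42 were called lower and 0 higher, against 17.7% and 18.2% of all genes. Nop58 was the gene whose call was lost. Within the low set alone 7 of the 42 were called lower and 0 higher, against 7.6% and 10.3% of all genes. The median there was -0.12. Within the high set alone 7 were called lower and 0 higher with a median of -0.14, against 8.38% and 9.85% of all genes. The high set holds 1 Meis1 deleted array, which is assumed to vary like the other arrays.

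**Figure D1:**
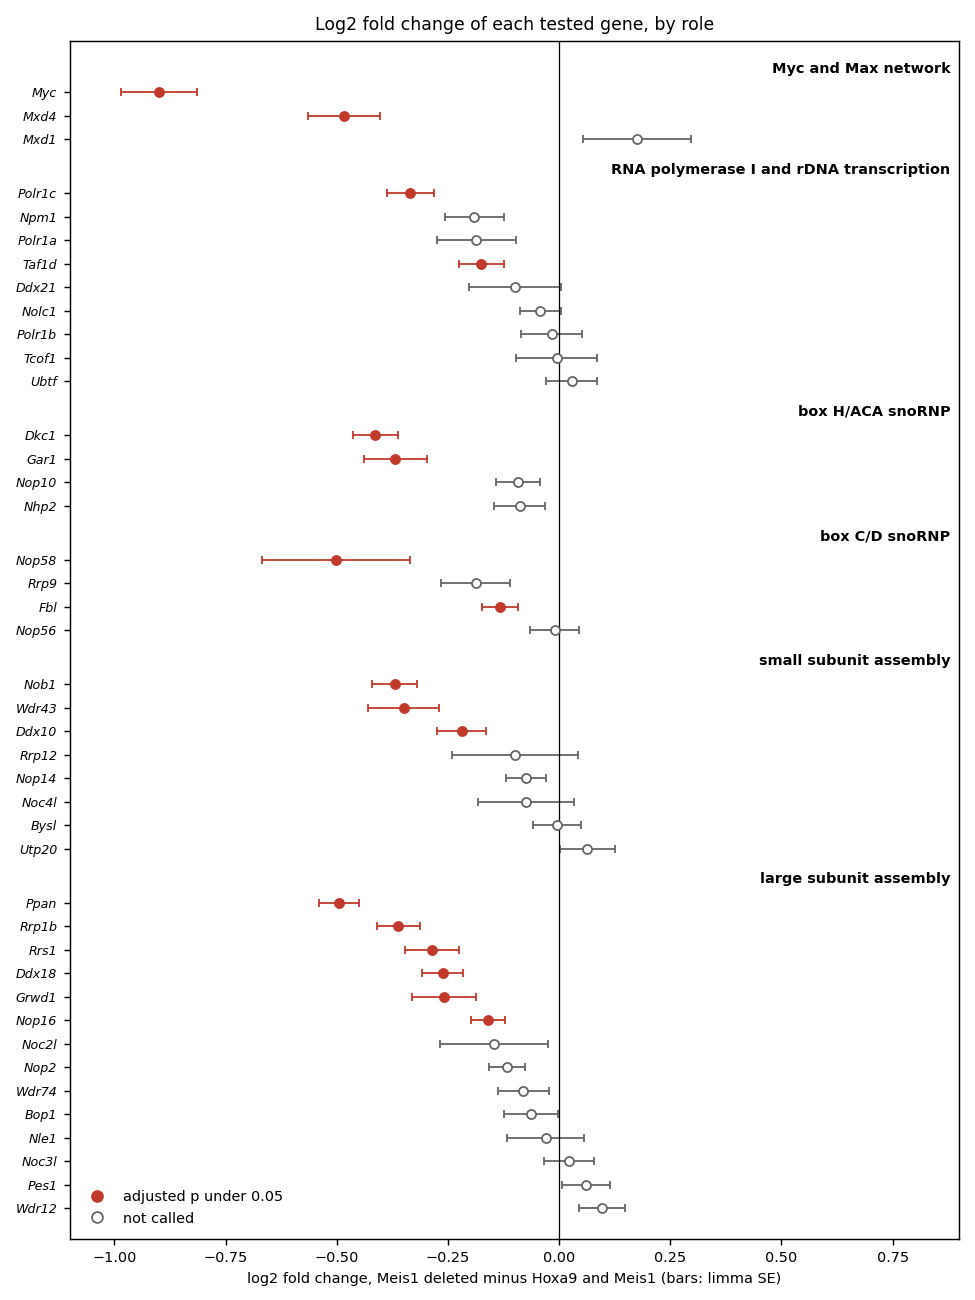
Log2 fold change of each of the 42 tested genes (horizontal axis, Meis1 deleted minus Hoxa9 and Meis1), grouped by role, with bars of 1 limma standard error, 4 arrays per group, and filled points for an adjusted p under 0.05. Myc lies farthest left at -0.90, and the 25 genes that were not called lie between -0.19 and 0.18.

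**Figure D2:**
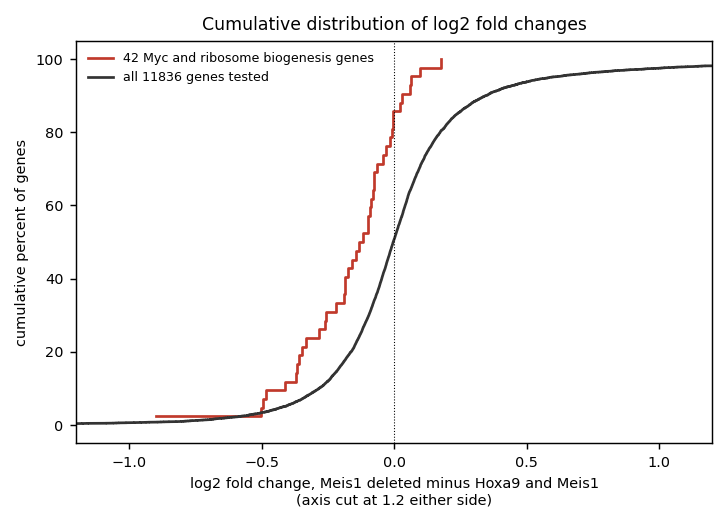
Cumulative percent of genes (vertical axis) by log2 fold change (horizontal axis, Meis1 deleted minus Hoxa9 and Meis1, cut at 1.2 either side) for the 42 members and for all 11836 genes. The members' curve lies left of that of all genes, with medians of -0.13 and -0.00444.

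Myc itself showed the largest difference of the 42 genes. It read 9.88, 9.71, 9.51 and 9.49 in Meis1 deleted cells, against 10.61, 10.58, 10.51 and 10.49 in cells with Hoxa9 and Meis1. Every Meis1 deleted array was below every array with Hoxa9 and Meis1. The log2 fold change was -0.90 ± 0.09, adjusted p = 4.03e-05, 95% interval -1.09 to -0.71, which is 0.536 times the level with Hoxa9 and Meis1. Only 0.811% of all genes had a more negative difference. Without Meis1 deleted replicate 1 it was -0.98, adjusted p = 3.28e-06, and it was -0.89 and -1.01 within the low and high bioB sets.

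Mxd4, a repressor that competes with Myc for Max, also fell. Its level was 7.68, 7.90, 7.90 and 7.94 in Meis1 deleted cells, against 8.25, 8.29, 8.28 and 8.54 in cells with Hoxa9 and Meis1 (-0.48 ± 0.08, adjusted p = 0.00141), with no overlap. Of its 4 kept probe sets 2 were lower and 2 were not called. Mxd1, a related repressor that is known to rise in maturing myeloid cells, was not called. It read 7.63, 7.28, 7.06 and 7.36 in Meis1 deleted cells, against 6.93, 7.15, 7.24 and 7.31 in cells with Hoxa9 and Meis1 (0.18 ± 0.12, adjusted p = 0.302, 95% interval -0.10 to 0.45), and the groups overlapped. Without Meis1 deleted replicate 1 its difference was 0.08, adjusted p = 0.587.

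Of the other genes listed for this network, 2 of 9 were called, both lower (22.2%, close to the 17.5% of all genes). Mnt, another Max partner that represses, read 8.80, 9.11, 8.95 and 8.94 in Meis1 deleted cells, against 9.34, 9.30, 9.24 and 9.23 in cells with Hoxa9 and Meis1 (-0.33 ± 0.07, adjusted p = 0.00460). Mycn, the paralogue of Myc, read 12.96, 12.94, 12.93 and 12.91 in Meis1 deleted cells, against 13.11, 13.10, 13.08 and 13.11 in cells with Hoxa9 and Meis1 (-0.17 ± 0.04, adjusted p = 0.00838). These levels are close to the highest value of the table, 13.2.

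Among the 9 tested genes of RNA polymerase I and rDNA transcription, 2 fell and 7 were not called. The share lower, 22.2%, is close to the 17.5% of all genes. Polr1c, a subunit that polymerases I and III share, read 9.01, 8.85, 8.88 and 9.0 in Meis1 deleted cells, against 9.23, 9.24, 9.29 and 9.32 in cells with Hoxa9 and Meis1 (-0.33 ± 0.05, adjusted p = 0.00104). Taf1d, a subunit of the promoter selectivity factor SL1, read 8.68, 8.65, 8.72 and 8.57 in Meis1 deleted cells, against 8.80, 8.79, 8.82 and 8.91 in cells with Hoxa9 and Meis1 (-0.17 ± 0.05, adjusted p = 0.0250). Neither gene's groups overlapped. The call of Taf1d was lost without Meis1 deleted replicate 2 or 4 or without Hoxa9 and Meis1 replicate 3 or 4, with an adjusted p of 0.0557 to 0.0694.

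The catalytic core and the main activator did not pass the test on the probe sets that stood for them. Polr1a, the largest subunit, had a difference of -0.19 ± 0.09, adjusted p = 0.136, and Polr1b, its partner in the core, -0.02 ± 0.07, adjusted p = 0.873. Ubtf, the factor that keeps rDNA open, had 0.03 ± 0.06, adjusted p = 0.742, with a 95% interval of -0.10 to 0.16. Tcof1 (treacle, which links rDNA transcription to processing) had -0.01 ± 0.09, adjusted p = 0.970, with an interval of -0.21 to 0.20, and Nolc1, its nucleolar relative, -0.04 ± 0.05, adjusted p = 0.520. Without Meis1 deleted replicate 1 the difference of Polr1a was -0.10, adjusted p = 0.188, and those of Polr1b, Tcof1 and Ubtf were -0.07, -0.09 and -0.02, none called. Nolc1 had 3 kept probe sets, none called with all arrays, and the others had -0.23 and -0.30. Without that replicate they had -0.32 (limma adjusted p = 6.70e-04 over probe sets) and -0.06 (0.604). With the mean of each gene's probe sets, limma called Nolc1 (-0.19, adjusted p = 0.0314) and Polr1a (-0.21, adjusted p = 0.0493) lower, and not Ubtf (-0.03).

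Npm1, an abundant nucleolar chaperone, lay close to the threshold. It read 11.54, 11.79, 11.82 and 11.76 in Meis1 deleted cells, against 11.88, 11.90, 11.93 and 11.96 in cells with Hoxa9 and Meis1 (-0.19 ± 0.07, adjusted p = 0.0502). Its groups did not overlap, and without Meis1 deleted replicate 1 the difference was -0.13, adjusted p = 0.0413. With all 8 arrays, settings such as an offset of 64, quantile normalization and the stricter filter also called it lower. Ddx21, a helicase of rRNA transcription and processing, had -0.10 ± 0.10, adjusted p = 0.502, and -0.21, adjusted p = 0.0251 without Meis1 deleted replicate 1. Its other kept probe set had the opposite sign and was not called. It had 0.10 ± 0.07 (limma adjusted p = 0.281 over probe sets), and 0.06 without that array (limma adjusted p = 0.491).

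In the same pathway, 4 of 8 listed genes outside the 47 fell and 0 rose, against 17.5% and 18.1% of all genes. Taf1a and Taf1b, further SL1 subunits, had -0.60 ± 0.06, adjusted p = 3.83e-05, and -0.36 ± 0.10, adjusted p = 0.0204. Twistnb and Znrd1, both polymerase I subunits, had -0.31 ± 0.05, adjusted p = 0.00161, and -0.20 ± 0.06, adjusted p = 0.0221.

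Box H/ACA snoRNPs convert uridine to pseudouridine in rRNA. Of the 4 genes for their core proteins, 2 fell (50%, against 17.5% of all genes) and 0 rose. Dkc1 (dyskerin), the enzyme, read 11.34, 11.39, 11.33 and 11.24 in Meis1 deleted cells, against 11.78, 11.78, 11.68 and 11.70 in cells with Hoxa9 and Meis1 (-0.41 ± 0.05, adjusted p = 1.88e-04). Gar1 read 9.36, 9.63, 9.63 and 9.59 in Meis1 deleted cells, against 9.84, 9.92, 9.94 and 9.99 in cells with Hoxa9 and Meis1 (-0.37 ± 0.07, adjusted p = 0.00296). Both pairs of groups were apart. Nhp2 had -0.09 ± 0.06, adjusted p = 0.265, and Nop10 -0.09 ± 0.05, adjusted p = 0.178, neither called.

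Box C/D snoRNPs methylate rRNA, and here too 2 of 4 genes fell (50%, against 17.5% of all genes) and 0 rose. Nop58, a scaffold protein, read 9.83, 10.58, 10.59 and 10.62 in Meis1 deleted cells, against 10.86, 10.78, 11.05 and 10.95 in cells with Hoxa9 and Meis1 (-0.50 ± 0.17, adjusted p = 0.0424). The array that stood apart carried much of that difference, which was -0.31, adjusted p = 0.00478 without it. The call was lost on leaving out Meis1 deleted replicate 2 or any 1 of the arrays with Hoxa9 and Meis1, where the adjusted p ran from 0.0514 to 0.109. With the bioB sets as a block the difference was -0.44, adjusted p = 0.0764. Fbl (fibrillarin), the methyltransferase, read 11.02, 10.94, 11.00 and 10.98 in Meis1 deleted cells, against 11.11, 11.12, 11.12 and 11.13 in cells with Hoxa9 and Meis1 (-0.13 ± 0.04, adjusted p = 0.0285). Its groups did not overlap, yet leaving out any 1 array other than Meis1 deleted replicate 1 ended the call, with an adjusted p of 0.0545 to 0.0793. Nop56, the other scaffold, had -0.01 ± 0.05, adjusted p = 0.906, with an interval of -0.13 to 0.11. Rrp9, which marks the U3 particle, had -0.19 ± 0.08, adjusted p = 0.0916, and -0.12, adjusted p = 0.129 without Meis1 deleted replicate 1. Of the 4 other genes listed for these particles 0 were called by limma, against 17.5% lower and 18.1% higher in all genes. At an unadjusted limma p under 0.05, 3 of the 4 were lower and 0 higher, against 2628 lower and 2631 higher of all 11836 genes.

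Small subunit assembly factors numbered 8 tested genes, of which 3 fell (37.5%, against 17.5% of all genes) and 0 rose. Nob1, the endonuclease that cuts the final end of the small-subunit rRNA, read 7.93, 8.10, 8.01 and 7.94 in Meis1 deleted cells, against 8.36, 8.40, 8.38 and 8.32 in cells with Hoxa9 and Meis1 (-0.37 ± 0.05, adjusted p = 3.73e-04). Wdr43, a processome protein, read 9.12, 9.49, 9.43 and 9.47 in Meis1 deleted cells, against 9.76, 9.74, 9.73 and 9.68 in cells with Hoxa9 and Meis1 (-0.35 ± 0.08, adjusted p = 0.00806). Ddx10, a helicase, read 8.61, 8.57, 8.43 and 8.58 in Meis1 deleted cells, against 8.72, 8.72, 8.79 and 8.83 in cells with Hoxa9 and Meis1 (-0.22 ± 0.05, adjusted p = 0.0125). All 3 genes had groups that did not overlap.

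Of the other 5, Utp20 of the processome had 0.06 ± 0.06, adjusted p = 0.473, and Bysl, needed late in small-subunit assembly, -0.00 ± 0.05, adjusted p = 0.955. Nop14 had -0.08 ± 0.04, adjusted p = 0.232, and Noc4l, its partner in yeast, -0.08 ± 0.11, adjusted p = 0.631. Rrp12, a late maturation factor, had -0.10 ± 0.14, adjusted p = 0.633, and -0.25, adjusted p = 0.0329 without Meis1 deleted replicate 1. In that fit Noc4l had -0.16 and Utp20 0.01, neither called. Outside the 47, 8 of 31 listed small-subunit genes fell (25.8%, against 17.5% of all genes) and 2 rose, where 18.1% of all genes did. Wdr75 of the processome had -0.63 ± 0.09, adjusted p = 6.04e-04, the kinase Riok2 -0.55 ± 0.07, adjusted p = 2.02e-04, its relative Riok1 -0.47 ± 0.08, adjusted p = 0.00117, and Imp3, a U3 partner, -0.50 ± 0.08, adjusted p = 0.00114.

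Large subunit assembly factors gave 6 falls among 14 tested genes (42.9%, against 17.5% of all genes), and 0 rose. Ppan, whose yeast counterpart acts early on the large subunit, had the smallest adjusted p of all 42 genes. It read 8.61, 8.51, 8.53 and 8.50 in Meis1 deleted cells, against 8.99, 9.08, 9.03 and 9.03 in cells with Hoxa9 and Meis1 (-0.49 ± 0.05, adjusted p = 3.11e-05). Rrp1b, a nucleolar processing factor, read 8.01, 8.09, 8.18 and 8.16 in Meis1 deleted cells, against 8.44, 8.47, 8.47 and 8.48 in cells with Hoxa9 and Meis1 (-0.36 ± 0.05, adjusted p = 3.75e-04). In both genes the groups were well apart, with gaps larger than the spread within either group.

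Rrs1, which in yeast helps to bring in the 5S particle, read 10.58, 10.43, 10.40 and 10.54 in Meis1 deleted cells, against 10.67, 10.77, 10.81 and 10.85 in cells with Hoxa9 and Meis1 (-0.29 ± 0.06, adjusted p = 0.00540). Ddx18, a helicase, read 9.25, 9.16, 9.20 and 9.11 in Meis1 deleted cells, against 9.45, 9.43, 9.41 and 9.48 in cells with Hoxa9 and Meis1 (-0.26 ± 0.05, adjusted p = 0.00187). Neither gene had overlapping groups, although Rrs1 on Meis1 deleted replicate 1 came within 0.1 of the nearest array with Hoxa9 and Meis1. Grwd1, a chaperone for a ribosomal protein, read 7.61, 7.60, 7.72 and 7.58 in Meis1 deleted cells, against 7.82, 8.09, 7.85 and 7.78 in cells with Hoxa9 and Meis1 (-0.26 ± 0.07, adjusted p = 0.0203). Without Meis1 deleted replicate 2 or 4 its adjusted p was 0.0513 and 0.0535. Nop16 read 8.85, 8.83, 8.85 and 8.85 in Meis1 deleted cells, against 8.99, 9.03, 8.99 and 9.0 in cells with Hoxa9 and Meis1 (-0.16 ± 0.04, adjusted p = 0.0104).

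The PeBoW complex, which Pes1, Bop1 and Wdr12 form and which Myc is known to induce, held no called gene. Pes1 had 0.06 ± 0.05, adjusted p = 0.428, with a 95% interval of -0.06 to 0.18. Wdr12 had 0.10 ± 0.05, adjusted p = 0.187, with an interval of -0.02 to 0.21, and Bop1 -0.06 ± 0.06, adjusted p = 0.463, with an interval of -0.20 to 0.07. A fall as large as that of Ppan lies outside all 3 intervals. Nop2, an rRNA methyltransferase, had -0.12 ± 0.04, adjusted p = 0.0534 with groups that did not overlap, and Wdr74, Nle1 and Noc3l had -0.08, -0.03 and 0.02, none called.

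Outside the 47, 10 of 34 listed large-subunit genes fell (29.4%, against 17.5% of all genes) and 2 rose, where 18.1% of all genes did. Nmd3, the export adaptor of the large subunit, had -0.52 ± 0.06, adjusted p = 2.13e-04. Mak16 had -0.37 ± 0.05, adjusted p = 3.49e-04, Brix1 -0.24 ± 0.04, adjusted p = 0.00123, and the GTPase Gnl2 -0.37 ± 0.09, adjusted p = 0.00836. Over all assembly lists, 22 of 77 genes outside the 47 fell (28.6%) and 4 rose, with a median of -0.11, against 17.5% lower and 18.1% higher in all genes. The 4 that rose were Tbl3, Dhx37, Senp3 and Ddx24, with 0.15, 0.27, 0.21 and 0.36, named after their values were seen. Without Meis1 deleted replicate 1, 30 of the 77 genes were called lower and 4 higher. In that fit 20.7% of all genes were lower and 18.8% higher.

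**Figure D3:**
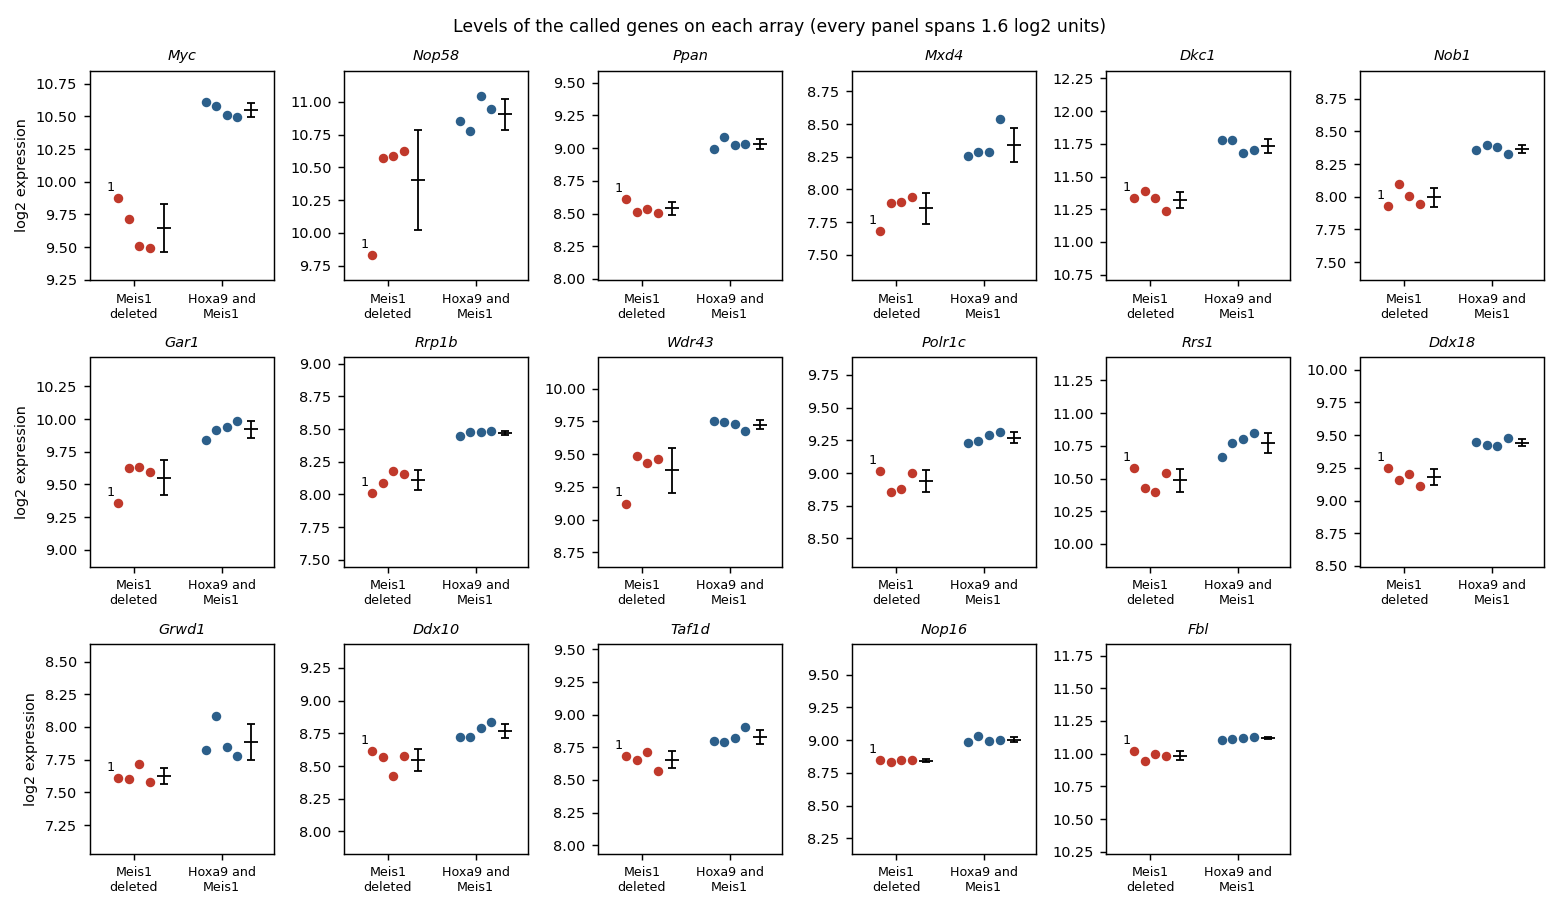
Log2 level (vertical axis, each panel spanning 1.6 units) of the 17 genes that fell, in Meis1 deleted cells (left, 4 arrays) and cells with Hoxa9 and Meis1 (right, 4 arrays), with mean ± SD as bars and Meis1 deleted replicate 1 marked with its number. Every Meis1 deleted array is below every array with Hoxa9 and Meis1 in all 17 panels, and replicate 1 is far below its group for Nop58.

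**Figure D4:**
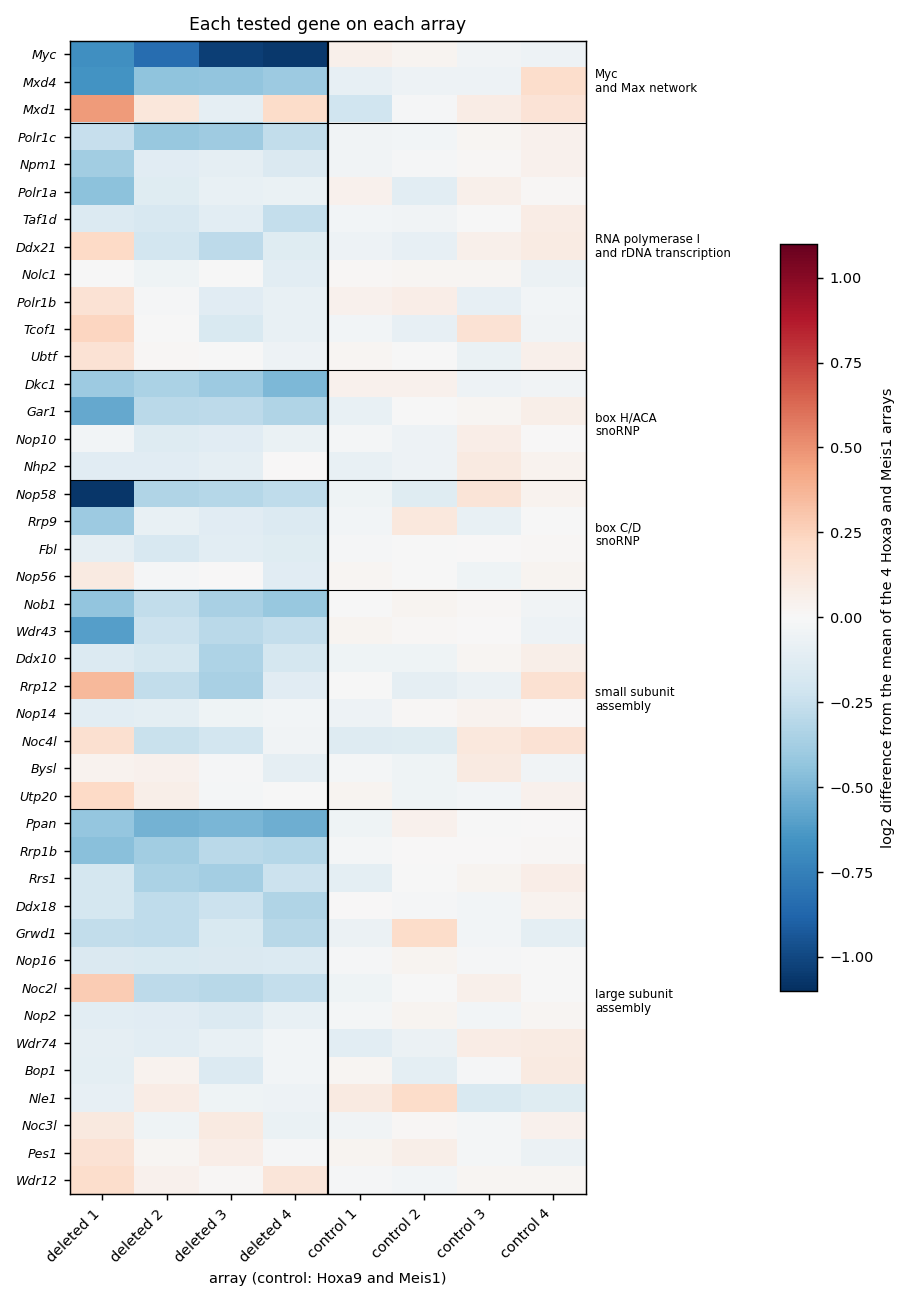
Difference of each of the 42 genes (rows, by role) on each of the 8 arrays (columns, Meis1 deleted left) from the mean of the 4 arrays with Hoxa9 and Meis1, in log2 units, blue lower and red higher. The Meis1 deleted columns are mostly blue, with medians of -0.12 to -0.16.

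Where a gene had several kept probe sets, they gave a check inside that gene. Of the 42 genes, 16 had 1 kept probe set and 26 had several. Among the genes that fell, Myc, Ppan, Nob1, Gar1 and Nop58 had only 1, so this check was not available for them. Tested alone, with adjustment over all probe sets, 33 of the 80 probe sets fell and 0 rose, against 16.8% and 15.9% of all probe sets. In 6 genes every kept probe set fell (Dkc1, Nop16, Polr1c, Rrp1b, Rrs1 and Wdr43), in 12 none was called, and 8 were mixed. The mixed genes were Ddx10, Ddx18, Fbl, Grwd1, Mxd4, Noc2l, Noc4l and Taf1d. Ddx18, Fbl and Grwd1 each had 1 probe set that was not called. These had -0.07, -0.08 and -0.18 (limma adjusted p = 0.459, 0.184 and 0.221 over probe sets). No gene had calls in opposite directions.

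Noc2l, a nucleolar factor of large-subunit assembly, was the clearest case of disagreement. The probe set with the higher mean read 8.65, 8.09, 8.06 and 8.11 in Meis1 deleted cells, against 8.32, 8.37, 8.43 and 8.37 in cells with Hoxa9 and Meis1 (-0.15 ± 0.12, adjusted p = 0.392). Only Meis1 deleted replicate 1 was above the arrays with Hoxa9 and Meis1, and without it the difference was -0.29, adjusted p = 7.13e-04. The other probe set read 7.16, 6.95, 6.97 and 7.01 in Meis1 deleted cells, against 7.85, 7.75, 7.87 and 7.89 in cells with Hoxa9 and Meis1, a difference of -0.82 ± 0.06 (limma adjusted p = 7.98e-06 over probe sets). Noc4l likewise had 1 probe set that fell, by 0.21 (limma adjusted p = 0.00696), while the one that stood for the gene was not called.

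Taf1d had 7 kept probe sets, of which 6 fell, by 0.17 to 0.73. The smallest of those differences was that of the probe set that stood for the gene. The largest one included a level of 3.85 on Meis1 deleted replicate 1, against 4.84 to 5.13 on the other Meis1 deleted arrays. A second Ddx10 probe set read 6.20 on that array, against 7.60 to 7.82 on the other Meis1 deleted arrays, and was not called (-0.56 ± 0.32). The part of this array's higher 3′ signal in these departures was not tested.

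**Figure D5:**
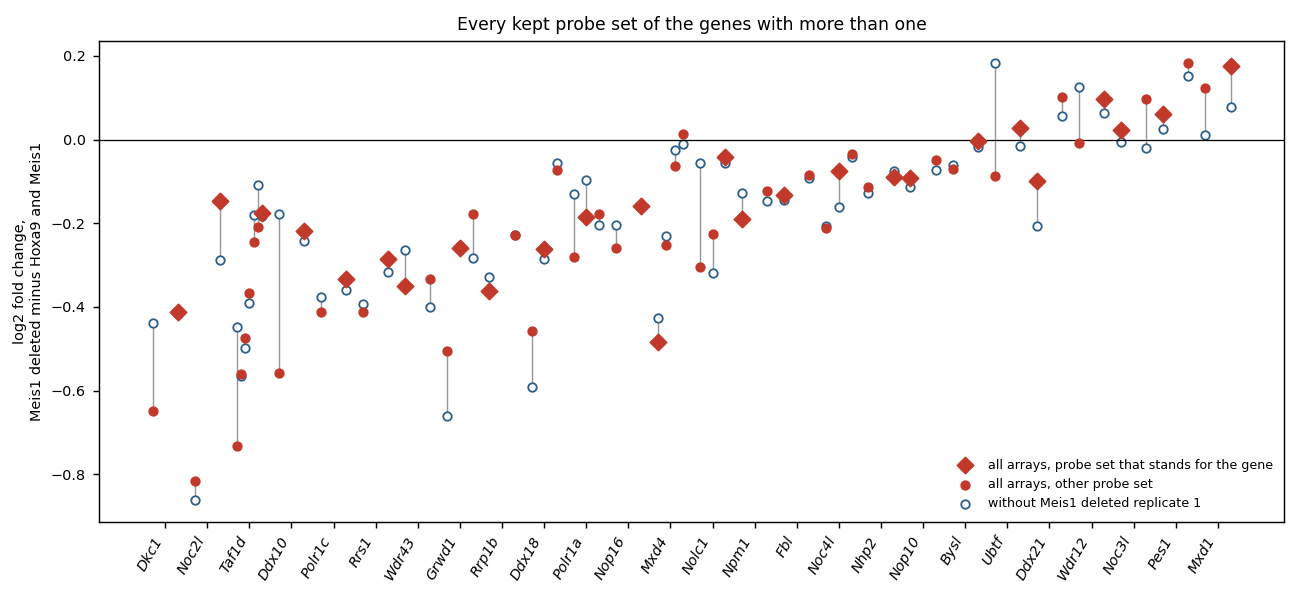
Log2 fold change (vertical axis, Meis1 deleted minus Hoxa9 and Meis1) of each kept probe set of the 26 genes that have several (genes along the horizontal axis), with all 8 arrays as filled points, a diamond for the one that stands for the gene, and as open points without Meis1 deleted replicate 1. Noc2l spans -0.82 to -0.15 with all arrays, and Taf1d lies below 0 with all 7 probe sets.

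Markers of maturing cells moved with the group. All 8 macrophage markers rose, with a median of 4.24, and their summed level (log2) was 13.1 to 13.2 in Meis1 deleted cells, against 10.6 to 10.7 in cells with Hoxa9 and Meis1. Of 8 late neutrophil markers 7 rose and 1 fell, with a summed level of 14.5 in Meis1 deleted cells, against 13.6 to 13.7 in cells with Hoxa9 and Meis1. The summed level of 7 immature myeloid markers was 14.289 to 14.317 in Meis1 deleted cells, against 14.324 to 14.332 in cells with Hoxa9 and Meis1. Of these 7 markers 3 were lower, among them Cd34 with -1.87. The 2 that were higher were Mpo with 0.59 and Myb with 0.27. Of the B and T cell markers 2 each were tested, and 0 passed limma's test even unadjusted. The summed level of the B cell markers was 6.15 to 6.37 in Meis1 deleted cells, against 6.34 to 6.41 in cells with Hoxa9 and Meis1, and that of the T cell markers 6.98 to 7.04 in Meis1 deleted cells, against 6.85 to 7.0 in cells with Hoxa9 and Meis1. Of 4 erythroid markers 1 rose, with summed levels of 7.23 to 7.25 in Meis1 deleted cells, against 7.09 to 7.20 in cells with Hoxa9 and Meis1. Of 3 megakaryocyte markers 1 rose, Pf4, by 3.84, and their summed level was 10.3 to 10.4 in Meis1 deleted cells, against 7.31 to 7.37 in cells with Hoxa9 and Meis1. Among 15 DNA replication genes 8 fell (53.3%, against 17.5% of all genes) and 0 rose, with a median of -0.14, all 15 being negative. Their summed level was 13.6 in Meis1 deleted cells, against 13.8 in cells with Hoxa9 and Meis1. The part of maturation or of a change in cell division in the falls of Myc and the assembly genes was not tested.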

How the data were processed

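Expression was measured on 1-colour Affymetrix arrays in 8 samples of mouse marrow cells, 4 per group, from 100 ng of total RNA, per the labels. The deposited values are log2 levels per probe set, judged so from their range of 2.65 to 13.2. Array medians of 4.69 to 4.74 were close, and from this the values were taken as normalized between arrays. MAS5 appears in the submitters' processing notes without a version. Summarisation of probes and genome build were not given in the sources used here. The number of arrays limits the precision.

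Control probe sets and the lowest 40% of the others by mean were left out. Of 45037 probe sets, 28898 had 1 gene symbol in GEO's platform annotation, 551 had several and 15588 were unnamed here. All 82 probe sets of the members matched a RefSeq table by gene ID, with 0 symbols that differ. The kept probe set of highest mean stood for its gene. Differences were fitted with limma 3.58.1 (lmFit, eBayes) in R 4.3.3 over all 27022 kept probe sets, with Benjamini-Hochberg adjustment over 11836 genes. Plots were drawn with matplotlib 3.10.9 in Python 3.11.15. The procedure was tested on simulated data.

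The members, the pathway and marker lists and the tests were chosen with earlier results of these data known. All members are named. For each pathway list, up to 4 further genes of smallest p may be named. Alternatives covered an offset of 64 on the linear scale, normalization between arrays, the filter, the choice of probe set, array weights, the spread, a replicate block, the bioB sets and each array left out.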

Additional observations from a re-analysis of the deposited data

Results flagged for a closer look

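In 7 of 84 groups of 4 arrays looked at, 1 array lay far from the other 3 of its group. Chance alone flags about 1 group in 20. Meis1 deleted replicate 1 was that array in 5 of the 7. There Nop58 read 9.83 against 10.58 to 10.62 on the other Meis1 deleted arrays, Wdr43 read 9.12 against 9.43 to 9.49, Gar1 read 9.36 against 9.59 to 9.63, and Polr1a read 6.49 against 6.80 to 6.86. Noc2l went the other way, at 8.65 against 8.06 to 8.11. Among the arrays with Hoxa9 and Meis1, replicate 4 read 8.54 for Mxd4, against 8.25 to 8.29 on the other 3, and 9.82 for Nolc1, against 9.90 to 9.91.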

How the results depend on the processing

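With all arrays, 4206 genes were called, and 17 members were lower and 0 higher with a median of -0.13. Leaving out each array in turn gave 3426 to 4673 genes, 13 to 21 members lower, 0 higher, and medians of -0.14 to -0.10. An offset of 64 moved the median to -0.10. With each probe set tested alone, 33 of 80 member probe sets fell and the median was -0.18. Within the low bioB set 2114 genes and 7 members were called, and within the high set 2158 genes and 7 members, with fewer arrays in each fit. Quantile normalization and scaling to the 75th percentile each gave 18 members lower. No member was called higher, and no called value changed sign, under any alternative run.

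The replicate number was also tried as a replicate block, which gave 3906 genes, 15 members lower and 0 higher, with a median of -0.13. Same-numbered arrays did not all deviate together: their correlations ran from -0.13 to 0.29, and 2 of 8 arrays correlated best with their own number, so no pairing was used.

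Of the 17 members that fell, 5 kept their call under all 21 alternatives with a value per gene (Myc, Ppan, Dkc1, Nob1 and Rrp1b), with Myc between -1.01 and -0.85. Fbl and Nop58 each lost it under 10, Taf1d under 7, and Grwd1 under 4. The cause of these losses was not tested beyond the arrays left out.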

Other observations

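Myc is known for targets outside ribosome assembly too, and of 25 such genes listed here 8 fell and 1 rose, with a median of -0.09. Of all genes, 17.5% fell and 18.1% rose. Eif4ebp1, a brake on translation initiation, had -0.58 ± 0.05, adjusted p = 1.52e-05 by limma, reading 9.76, 9.67, 9.79 and 9.66 in Meis1 deleted cells, against 10.25, 10.30, 10.35 and 10.32 in cells with Hoxa9 and Meis1. Shmt2, the mitochondrial serine hydroxymethyltransferase, had -0.79 ± 0.14, adjusted p = 0.00194, and -0.63 without Meis1 deleted replicate 1. Hnrnpa1, a splicing factor, had -0.30 ± 0.05, adjusted p = 0.00103. Hspe1, a mitochondrial co-chaperonin, was the gene that rose, with 0.26 ± 0.04, adjusted p = 0.00161.

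RNA polymerase III makes transfer RNAs and the small ribosomal RNA that polymerase I does not make. Of 12 listed genes 3 fell (25%, against 17.5% of all genes) and 0 rose, where 18.1% of all genes did, with a median of -0.13. Polr3d and Polr3e, both subunits, had -0.38 ± 0.07, adjusted p = 0.00171, and -0.21 ± 0.06, adjusted p = 0.0185 by limma. Maf1, the repressor of this polymerase, fell as well, with -0.34 ± 0.05, adjusted p = 6.84e-04, so the members of the list that moved include its inhibitor.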
